A study of Mus musculus with 6 samples.

Results

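Antigen-presenting cells show peptides to CD4+ T cells on MHC class II molecules, and T cells respond fully only when the same cell also offers costimulatory molecules. Transcription of the class II genes is governed by the coactivator CIITA, whereas the costimulatory genes are switched on largely through NF-kB signalling. Macrophages and dendritic cells carry both systems, and osteoclasts arise from the same myeloid precursors. Described here are 5 genes of these systems in osteoclast precursors stimulated with sRANKL. The class II side has 3 genes, Ciita, H2-Eb1 and H2-DMa, and the costimulatory side has 2, Cd80 and Cd40. They were selected by symbol among the 522 named genes of the array tables, in which 2859 rows were compared. Gene symbols are paired only with the 656 probe sets that the authors had called changed between the groups, so each of the 5 genes was already known to differ. The values below therefore describe these genes and are no test of whether they changed.

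Gene expression was measured on 6 Affymetrix Mouse Gene 1.0 ST arrays from 3 independent experiments. In each experiment the bone marrow cells of 3 wild-type SV129/BL6 mice were pooled, kept for 48 hours in 10 ng/ml M-CSF, and split into a pair of dishes. One dish received 200 ng/ml sRANKL, the soluble form of the osteoclast-inducing cytokine RANKL, together with 20 ng/ml M-CSF (M-CSF + sRANKL), and the other received 20 ng/ml M-CSF (M-CSF alone), which sustains macrophage precursors. RNA was taken after 2 days. All dishes thus shared the strain, the pooling and the M-CSF. The study's methods give an age of 6 to 12 weeks for the mice of its bone marrow monocyte cultures. Their microarray section states no age. The sRANKL had been purified from a bacterial expression construct. The sample records put the density-gradient fraction at about 30% mononuclear osteoclast precursors, so the dishes held other marrow cells as well. In such a mixture, fewer cells of a type and less RNA per cell cannot be told apart. Values are RMA intensities, with ratios computed on the log2 scale as M-CSF + sRANKL over M-CSF alone. Having 3 arrays in each group limits the precision.

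The class II genes were lower and the costimulatory genes higher with sRANKL. Ciita was at 0.459, H2-Eb1 at 0.415 and H2-DMa at 0.418 of the M-CSF alone level, while Cd80 was 2.96-fold and Cd40 2.28-fold higher. For all 5 genes the 3 arrays with sRANKL did not overlap with the 3 arrays with M-CSF alone, as was so for 77.8% of the 2859 rows, 32.6% being lower and 45.2% higher. All 5 also had an adjusted p under 0.05 in limma, as did 78.2% of the rows, 33.2% being lower and 44.9% higher. Because the genes were listed from this very contrast, neither count says anything about them beyond their selection.

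**Figure D1:**
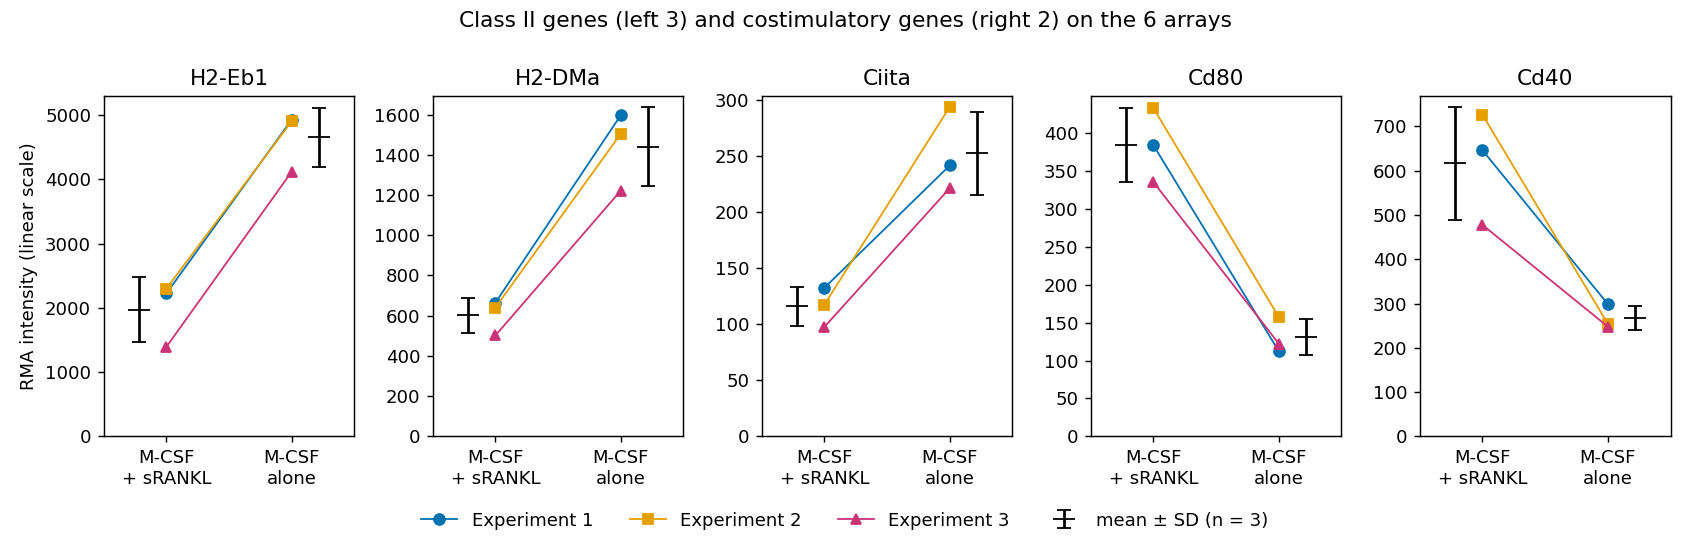
RMA intensity (linear scale, each panel from 0) of the 5 genes on the 6 arrays, with M-CSF + sRANKL at left and M-CSF alone at right in each panel. Coloured lines join the dishes of one experiment and black bars give the mean ± SD (n = 3). H2-Eb1, H2-DMa and Ciita lie lower with sRANKL in every experiment, and Cd80 and Cd40 lie higher.

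Ciita encodes the class II transactivator, which does not bind DNA itself but is recruited to class II promoters by the factors assembled there. Its probe set spans bases 10480152 to 10527657 on the plus strand of chromosome 16 in the authors' annotation (Entrez 12265), whose genome build is not given in the sources used here. In Experiments 1, 2 and 3 its intensity was 132.51, 117.51 and 97.63 with M-CSF + sRANKL, against 241.61, 293.83 and 221.37 with M-CSF alone. Even the brightest array with sRANKL stayed below the dimmest with M-CSF alone, by a factor of 1.67. The mean log2 ratio was -1.12 ± 0.23 (SD of the 3 experiments). Within single experiments Ciita was at 0.548, 0.400 and 0.441 of the level in the partner dish, so the decrease was smallest in Experiment 1, where it was less than 2-fold.

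H2-Eb1 encodes the beta chain of the class II molecule E, which presents peptide as a pair with an alpha chain. In C57BL/6 mice the gene for that alpha chain is not transcribed, so the beta transcript can be present without the molecule on the cell surface. The probe set spans bases 34442812 to 34453619 on the plus strand of chromosome 17 (Entrez 14969). The intensity of H2-Eb1 was 2225.52, 2300.57 and 1393.22 in Experiments 1, 2 and 3 with M-CSF + sRANKL, against 4933.04, 4908.24 and 4121.84 with M-CSF alone. The array with sRANKL of Experiment 3 was well below the other two of its group, which lay close together. The mean log2 ratio was -1.27 ± 0.26 (SD, n = 3), with ratios of 0.451, 0.469 and 0.338 in the 3 experiments. Class II beta chain genes resemble each other in sequence, so the probe set can share signal with its relatives.

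The promoter of H2-Eb1 is shown because class II promoters carry the X box and Y box through which CIITA is recruited. RefSeq promoter windows of GRCm38.p6 were found for 3 of the 5 genes. The 250 bases before the annotated start of H2-Eb1, chr17:34305617-34305866 on the plus strand, are printed below with matches to the X box core ACNGATG and to the Y box core ATTGG, sought on both strands, in capitals. For comparison they are followed by the same length before the start of Cd80, chr16:38458683-38458932 on the plus strand.
H2-Eb1: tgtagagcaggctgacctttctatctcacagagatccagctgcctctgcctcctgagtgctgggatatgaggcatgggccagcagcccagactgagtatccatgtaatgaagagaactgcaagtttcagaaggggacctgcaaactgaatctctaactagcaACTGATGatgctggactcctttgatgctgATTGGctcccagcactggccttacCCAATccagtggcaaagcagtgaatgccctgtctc
Cd80: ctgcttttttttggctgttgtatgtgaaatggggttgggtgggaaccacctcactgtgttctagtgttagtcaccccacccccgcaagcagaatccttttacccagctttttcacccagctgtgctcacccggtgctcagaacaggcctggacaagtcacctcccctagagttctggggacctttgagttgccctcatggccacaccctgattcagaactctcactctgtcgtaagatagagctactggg

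In the H2-Eb1 window the X box core lies 88 to 82 bases before the start. It is followed by ATTGG on the plus strand 59 to 55 bases before the start and by its reverse complement, CCAAT, 35 to 31 bases before it. The X box core occurred in 8.31% of the 32851 promoter windows of this length, and the Y box core, a short and common motif, in 33.8%. The cores do not overlap each other. The Cd80 window held neither core. The NF-kB consensus GGGRNWYYCC (R is A or G, W is A or T, Y is C or T, N any base) occurred in 3.90% of all windows. It had no match in the windows of H2-Eb1, H2-DMa or Cd80. The windows listed for H2-DMa lie at RefSeq starts further upstream and are therefore not printed. They lie farther from the H2-Eb1 start than the probe sets of the 2 genes lie apart. Neither held the X box core. The H2-DMa window starting at base 34125268 held a Y box core 198 to 194 bases before its start, and the other held none. These matches describe the sequence and are not evidence of binding.

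H2-DMa encodes the alpha chain of DM, the chaperone that exchanges the invariant chain fragment for peptide in endosomes. Its probe set spans bases 34272573 to 34276046 on the plus strand of chromosome 17 (Entrez 14998), and starts 170239 bases before that of H2-Eb1. The intensity of H2-DMa was 664.61, 640.66 and 501.57 in Experiments 1, 2 and 3 with M-CSF + sRANKL, against 1596.5, 1504.22 and 1221.64 with M-CSF alone. Experiment 3 was the lowest in both groups, and the ratio to the partner dish was hardly altered by that, at 0.416, 0.426 and 0.411. The mean log2 ratio was -1.26 ± 0.03 (SD, n = 3). Only 9 of the 522 named genes had a smaller SD of the log2 ratio over the 3 experiments, and the median SD was 0.23.

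Cd80 encodes the B7 ligand that engages CD28 and CTLA-4 on T cells. Its brighter probe set spans bases 38459013 to 38487015 on the plus strand of chromosome 16 (Entrez 12519). The intensity of Cd80 was 383.87, 432.62 and 335.21 in Experiments 1, 2 and 3 with M-CSF + sRANKL, against 112.15, 157.29 and 122.2 with M-CSF alone. The dimmest array with sRANKL was 2.13-fold above the brightest with M-CSF alone, the widest such gap among the probe sets used for the 5 genes. The mean log2 ratio was 1.56 ± 0.18 (SD, n = 3), with ratios of 3.42, 2.75 and 2.74.

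Cd80 was the only one of the 5 genes with a second probe set on the list, at bases 38493726 to 38496406. It was left aside because the probe set with the higher mean was used, and the means over the 6 arrays were 7.80 and 6.77 on the log2 scale. Its intensity was 170.5, 194.5 and 132.79 with M-CSF + sRANKL, against 73.18, 75.46 and 69.6 with M-CSF alone. The direction was the same as that of the brighter probe set and the change was smaller, 2.25-fold, with a log2 ratio of 1.17 ± 0.22 (SD, n = 3). In Experiment 3 it was 1.91-fold. The dimmest array with sRANKL was 1.76-fold above the brightest with M-CSF alone. That gap was narrower than those of H2-DMa (1.84) and H2-Eb1 (1.79).

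Cd40 encodes the receptor for CD40 ligand, a member of the TNF receptor superfamily to which RANK also belongs, and signals through TRAF proteins. Its probe set spans bases 164881136 to 164897154 on the plus strand of chromosome 2 (Entrez 21939). The intensity of Cd40 was 646.13, 726.25 and 477.49 in Experiments 1, 2 and 3 with M-CSF + sRANKL, against 298.78, 254.22 and 247.77 with M-CSF alone. The groups were separated by a factor of 1.60, the narrowest gap of the 5 genes. The mean log2 ratio was 1.19 ± 0.29 (SD, n = 3). Experiment 2 gave the largest increase, at 2.86-fold, against 2.16-fold in Experiment 1 and 1.93-fold in Experiment 3.

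**Figure D2:**
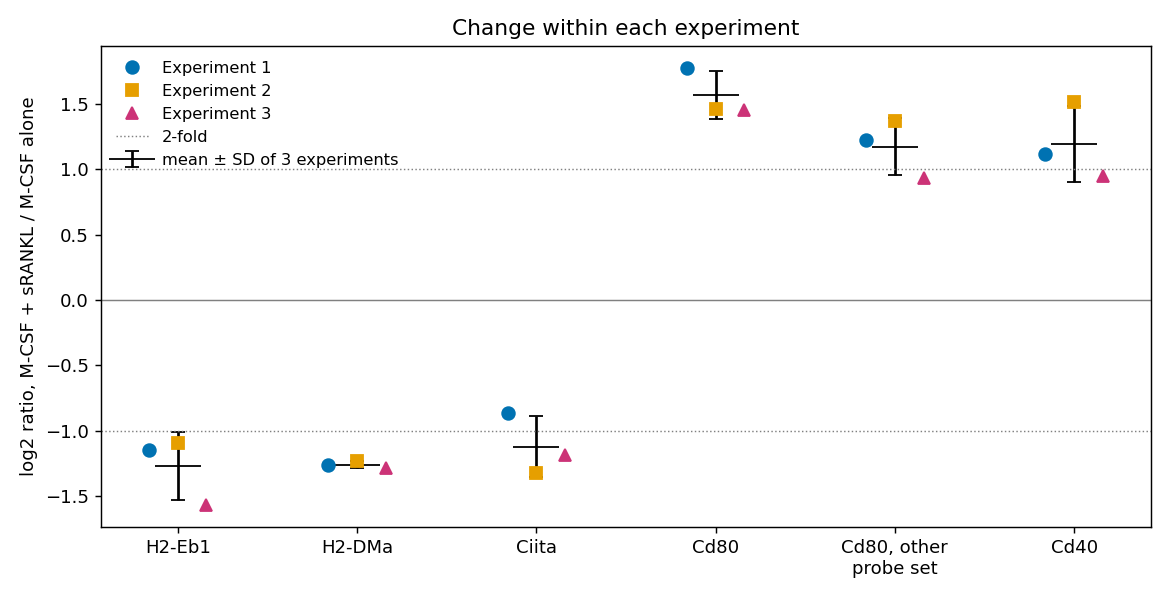
Log2 ratio of M-CSF + sRANKL over M-CSF alone within each of the 3 experiments, for the 5 genes and the other probe set of Cd80. Points are experiments, black bars the mean ± SD (n = 3), the solid line no change and the dotted lines 2-fold. H2-DMa has the tightest points, with an SD of 0.03, and the ratios of Ciita in Experiment 1 and of Cd40 and the other Cd80 probe set in Experiment 3 lie inside the 2-fold lines.

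The 3 class II genes and the 2 costimulatory genes were then set against each other within each pool of cells. The mean log2 ratio of the class II genes was -1.09, -1.22 and -1.34 in Experiments 1, 2 and 3, and that of the costimulatory genes was 1.44, 1.49 and 1.20. Their difference, costimulatory minus class II, was 2.54, 2.70 and 2.54, with a mean of 2.59 ± 0.09 (SD, n = 3), which is 6.04-fold. The size of this averaged separation thus varied little between the pools, although Experiment 3 had the lowest mean ratios on both sides. Averaging over genes hides the larger variation of some single pairs. The SD of the difference in log2 ratio ran from 0.08 for Ciita and Cd80 to 0.46 for Ciita and Cd40 (n = 3). The direction was fixed by the choice of the genes and was not tested. Listing by change on these same arrays also favours genes with a small spread. Between the 2 costimulatory genes, the log2 ratio of Cd80 exceeded that of Cd40 by 0.37 ± 0.38 (SD, n = 3), a difference no larger than its spread over the experiments. The other Cd80 probe set, at 1.17, did not exceed Cd40, at 1.19. The log2 ratios of H2-Eb1 and H2-DMa differed by -0.01 ± 0.24 (SD, n = 3).

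The changes were of ordinary size among the named genes. Named genes that were lower had a median log2 ratio of -1.30 (181 genes), and among them H2-Eb1 ranked 98, H2-DMa 100 and Ciita 134 by size. Named genes that were higher had a median of 1.39 (341 genes), and among them Cd80 ranked 129 and Cd40 ranked 248. The smallest change of any named gene was 2.00-fold. Over all 2859 rows the median log2 ratio was 0.42.

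The arrays of Experiment 3 were low for genes of both sides. With M-CSF + sRANKL, Experiment 3 had the lowest value of the group for 5 of the 5 genes, whereas it did so for 37.7% of the named genes and 26.1% of all rows. With M-CSF alone it had the lowest value for 4 of the 5 genes, the exception being Cd80, which was lowest in Experiment 1, and for 33.3% of the named genes and 21.0% of all rows. Experiment 3 was lowest in both groups for 4 of the 5 genes, against 18.2% of the named genes. The deviation from the group mean was largest for H2-Eb1, at -0.47 on the log2 scale on the Experiment 3 array with sRANKL, and Cd40 was at -0.35 on that array. Over the 2890 deposited probe sets, whose values had already been normalised between arrays, the median log2 intensity of Experiment 3 was 8.45 with M-CSF + sRANKL and 8.31 with M-CSF alone, in both cases between those of Experiments 1 and 2. The sample descriptions name April, March and May for Experiments 1, 2 and 3, without saying what the month marks. Experiment 3 thus differed from the others in its pool of mice and in that month. Whatever else differed cannot be told apart from these.

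**Figure D3:**
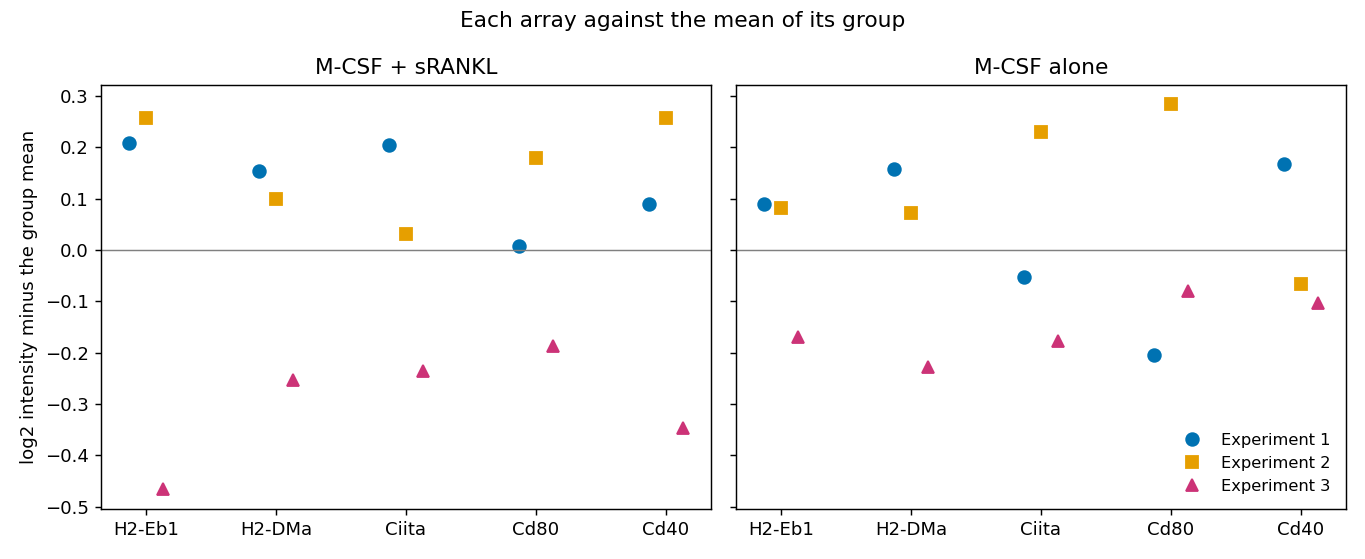
Log2 intensity of each array minus the mean of its group of 3, for M-CSF + sRANKL (left) and M-CSF alone (right), with the 5 genes along the x axis and a symbol for each experiment. The Experiment 3 arrays lie below 0 for all 5 genes in both groups, and lowest for H2-Eb1 with sRANKL, at -0.47.

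The genes most alike in pattern were found from the 6 log2 values of each named gene, centred on its own mean, by the root mean square difference to each of the 521 other named genes. For H2-Eb1 the closest were H2-DMa (0.12), Ciita (0.17) and Adgre5 (0.19), an adhesion receptor of leukocytes. For H2-DMa they were H2-Eb1 (0.12), the cell adhesion molecule Cadm1 (0.12) and Bmyc (0.13), with Ciita in position 4 (0.13). For Ciita they were the flavin monooxygenase Fmo5 (0.12), H2-DMa (0.13) and Jup (0.14), the junctional protein plakoglobin. The 3 class II genes were thus among each other's nearest patterns, with H2-Eb1 in position 13 for Ciita.
For Cd80 the closest were Clec5a (0.07), an activating lectin receptor of myeloid cells, the chemokine Ccl4 (0.11) and the glutaredoxin Glrx (0.11). For Cd40 they were Il4i1 (0.06), a secreted amino acid oxidase of antigen-presenting cells, the RNA-binding protein Rbpms (0.08) and Bcl2a1a (0.09), a survival factor with near-identical copies in the genome. Cd80 and Cd40 were not neighbours of each other, with a difference of 0.29, which placed Cd40 in position 171 for Cd80 and Cd80 in position 140 for Cd40. This holds for the brighter Cd80 probe set. The other had a log2 ratio of 1.17, against 1.19 for Cd40, and its distance was not computed. These distances are in log2 units, rest on 6 arrays that share 3 pools of cells, and largely reflect the size of the change.

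The wider pathways were examined through lists, of which only the named genes could be read. Named genes are those already called changed, so they do not stand for the whole of a list. Of 19 listed genes of MHC class II and its transcription factors, 3 are named, those described above, all lower. Of 16 listed genes of endolysosomal processing, 2 are named and both were lower. Ctse, the aspartic protease cathepsin E, was at 0.376 of the M-CSF alone level, with a log2 ratio of -1.41 ± 0.19 (SD, n = 3). Lipa, the lysosomal acid lipase, was at 0.471, with a log2 ratio of -1.09 ± 0.11 (SD, n = 3). Lipa acts on lipids and not on protein antigens. None of the 25 listed genes of MHC class I presentation is named. The non-classical class I gene H2-M2, which is named and described at the end, was not on that list.
Of 24 listed costimulatory and coinhibitory genes, 4 are named, each of them higher, and their median log2 ratio was 1.70. The other two, beside Cd80 and Cd40, are inhibitory ligands. Cd274, which encodes PD-L1, the ligand of the T cell inhibitory receptor PD-1, was 5.97-fold higher, with a log2 ratio of 2.58 ± 0.27 (SD, n = 3). Cd200, whose product restrains myeloid cells through its receptor, was 3.56-fold higher, with a log2 ratio of 1.83 ± 0.51 (SD, n = 3).
Of 19 listed genes of CD40 signalling and NF-kB, 5 are named, each of them higher, and their median log2 ratio was 1.35. Traf1, an adaptor of CD40 and other TNF receptors, was 5.26-fold higher, and Tank, a partner of TRAF proteins, was 2.55-fold higher. The other three were Tnfaip3 at 2.62-fold, Nfkbiz at 2.37-fold and Nfkbia at 2.00-fold, all regulators of NF-kB that are also induced by it.

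Of 22 listed genes of the interferon-gamma pathway and of Ciita regulation, 5 are named. Each of the 5 was higher, with a median log2 ratio of 1.17, while Ciita itself was lower. Jak2, a kinase of the interferon-gamma receptor, was 2.25-fold higher (log2 ratio 1.17 ± 0.18, SD, n = 3). The interferon-inducible GTPases Gbp2 and Gbp5 were 2.08-fold and 2.27-fold higher. Socs3, an inhibitor of cytokine receptor signalling, was 3.84-fold higher with a log2 ratio of 1.94 ± 0.05 (SD, n = 3), and Il4ra, a chain of the interleukin-4 receptor, was 2.05-fold higher. Over all named genes 341 of 522 were higher, and every named gene had been called changed before it was listed, so these counts do not set the lists apart.

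**Figure D4:**
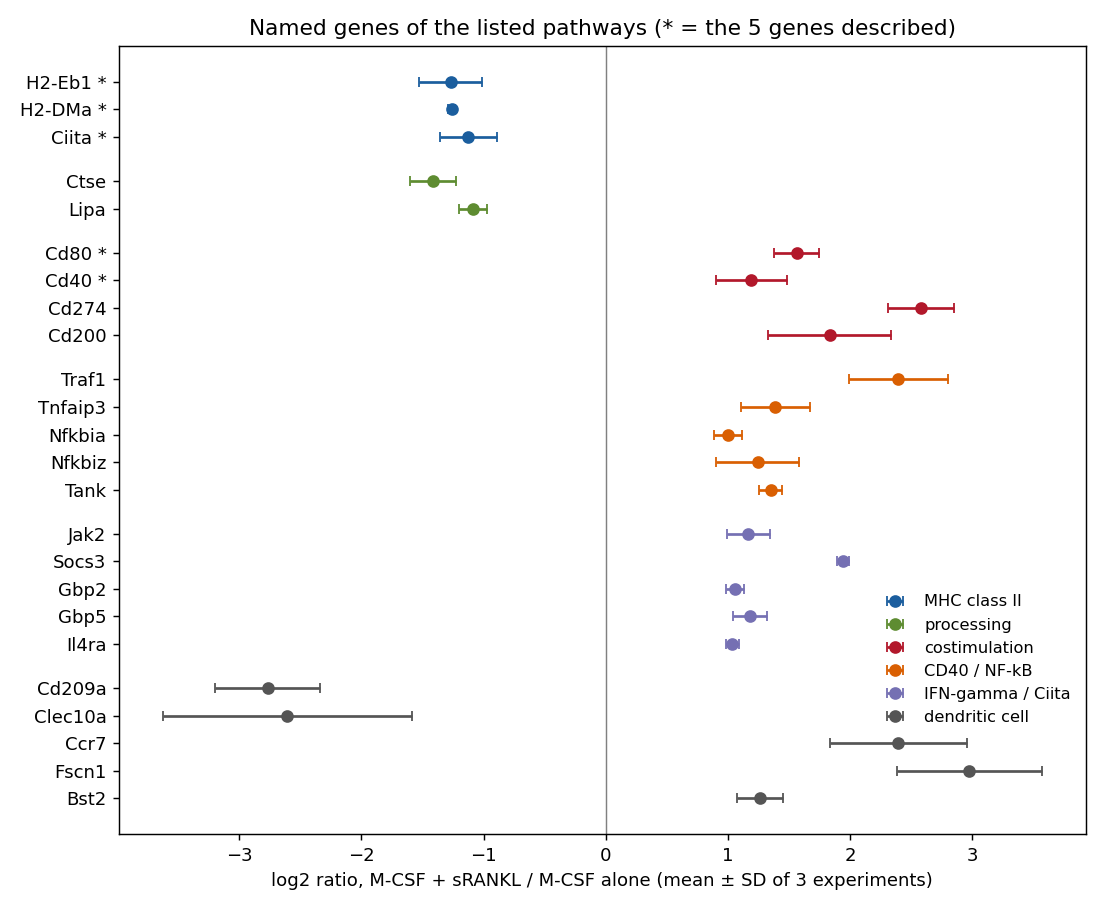
Log2 ratio of M-CSF + sRANKL over M-CSF alone for the named genes of 6 lists, as mean ± SD of the 3 experiments, coloured by list, with the 5 genes described here marked by an asterisk. The named class II and processing genes lie left of 0, the costimulatory, CD40 and interferon-gamma pathway genes lie right of 0, and the dendritic cell markers lie on both sides.

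Class II and costimulatory genes are expressed most strongly by dendritic cells and B cells, so the markers of these and other cell types were read in the same arrays. Of 20 listed dendritic cell markers 5 are named, 2 lower and 3 higher. Cd209a and Clec10a, lectins of monocyte-derived and conventional dendritic cells, were at 0.147 and 0.164 of the M-CSF alone level. Ccr7, the chemokine receptor of migrating dendritic cells, was 5.25-fold higher, Fscn1, an actin-bundling protein of mature dendritic cells, 7.87-fold, and Bst2, a surface protein also induced by interferon, 2.41-fold. The summed intensity of the 5 markers was between 7686 and 9960 with M-CSF + sRANKL, against 3592 to 5052 with M-CSF alone. Most of this sum came from Bst2, at 6442 to 7870 with M-CSF + sRANKL, against 2471 to 3483 with M-CSF alone, so it does not show the decrease of Cd209a and Clec10a. The part of dendritic cells in the values of the 5 genes was not tested.
None of the 14 listed B cell markers is named, so the part of B cells was not tested either. Of 15 listed osteoclast markers 6 are named, all higher, among them Acp5 at 11.0-fold and Ctsk at 8.98-fold. Of 15 listed macrophage markers 2 are named, Apoe at 0.106 and Marco at 32.5-fold, so the labelled cell type, monocytes, could be checked only on these. Of 15 listed neutrophil and granulocyte precursor markers 4 are named, all higher, with a summed intensity of 5237 to 8474 with M-CSF + sRANKL, against 1454 to 2216 with M-CSF alone. Of 14 listed T cell and NK cell markers 1 is named, the chemokine gene Ccl5, at 10.2-fold. No marker is at 0, since RMA intensities are always above it.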

How the data were processed

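RNA of 6 dishes was hybridised to Affymetrix Mouse Gene 1.0 ST arrays. The values that the authors deposited are RMA intensities on a linear scale, for 2890 probe sets. RMA corrects the background, normalises by quantiles and summarises the probes. How these probe sets were chosen is not given in the sources used here. The authors' second table lists 656 probe sets called changed, 553 with a symbol. Its columns of group means, fold and p-values were not used. Columns were matched to samples by the sample descriptions, and 0 columns were left over. Older symbols were replaced by those of RefSeq (GRCm38.p6) with the same Entrez number.

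For a named gene with several probe sets, only the one with the highest mean log2 over the 6 arrays was kept, leaving 2859 rows. Log2 intensities were fitted with limma 3.58.1 in R 4.3.3 for the difference of M-CSF + sRANKL from M-CSF alone. No block was used, and p-values were adjusted by Benjamini-Hochberg over all rows, with a threshold of 0.05. The fit was tested on simulated data first and served only for the share of rows called. Ratios and figures used Python 3.11.15 with numpy 2.4.6, pandas 2.3.3 and matplotlib 3.10.9. The SD given with a log2 ratio is that of the 3 within-experiment differences.

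The dishes of an experiment came from 1 pool, so the experiment number pairs them: the correlation of partner dishes in their deviations from the group means was 0.605, 0.564 and 0.645. The pools are the replicates.

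The 5 genes, the lists and the rule for the genes described singly were chosen with earlier results of these data known. Named genes are all 522 genes with a symbol. Those described singly are the 5, the 3 nearest in pattern to each, and the named genes of the pathway, dendritic cell and B cell lists, 1 of which is not reported here. A few markers of other cell types were added after their values were seen. The alternatives were median centring, quantile normalization, log2(value + 16), the replicate block, limma-trend, the methods' t-test with adjustment, filters at a mean log2 of 7 and 8, all probe sets, averaging the probe sets of a gene, the median over genes, and leaving out each array. Leaving out each experiment was added after seeing the data.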

Additional observations from a re-analysis of the deposited data

How the results depend on the processing

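All 5 genes kept their direction in every alternative run. With 1 array left out, the log2 ratio was between -1.40 and -1.04 for H2-Eb1, -1.37 and -1.13 for H2-DMa, -1.23 and -1.01 for Ciita, 1.46 and 1.71 for Cd80, and 1.06 and 1.36 for Cd40. Quantile normalization of the filtered probe sets gave -1.55 for H2-Eb1 and -1.51 for H2-DMa, against -1.27 and -1.26 as deposited. It gave -1.12 for Ciita, 1.51 for Cd80 and 1.04 for Cd40, against -1.12, 1.56 and 1.19. The mean of both probe sets gave 1.37 for Cd80. The difference of costimulatory minus class II genes was between 2.55 and 2.67 with 1 array left out and 2.47 on the log2(value + 16) scale, against 2.59. The genes were listed for changes of at least 2-fold on these arrays, which largely fixed this stability.

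The median log2 ratio of all rows, 0.42 as deposited, was 0.29 after median centring and 0.21 after quantile normalization. Of 2859 rows, 2235 were called by limma without a block and 2613 with the replicate block, which leaves the ratios themselves unchanged by construction. Without both arrays of Experiment 3, 917 rows were called, and without both of another experiment up to 2106, in each case from fewer arrays. With rows limited to a mean log2 of at least 8, 1372 were called among the 1653 left. The other alternatives gave 1864 to 2348 with 1 array left out and 1913 to 2281 otherwise. No array outlier was sought, since groups of 3 are too small.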

Other observations

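Both class II genes of chromosome 17 lie in the MHC region, which also holds genes of other kinds. In the authors' annotation, 9 listed probe sets lie between bases 34272573 and 37620474, from H2-DMa to H2-M2. H2-DMa and H2-Eb1 were lower and the 7 others were higher, while 341 of all 522 named genes were higher. The 9 probe sets were chosen after their values were seen, and 1 of them has no name, so the counts are no result about the region. Cfb, the complement factor B of the class III region, was 11.4-fold higher, and Tnf, the cytokine gene of the same region, 3.56-fold. Aif1 was 2.40-fold, Mrps18b 2.15-fold and Ier3 2.05-fold higher. H2-M2, a non-classical class I gene, was 5.21-fold higher. Its intensities on M-CSF + sRANKL arrays were all above those on M-CSF alone arrays, as was so for 45.2% of the 2859 rows.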
